A study of Homo sapiens with 9 samples.

Results

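The SR proteins and the heterogeneous nuclear ribonucleoproteins (hnRNPs) were examined in A549, an established human lung adenocarcinoma cell line that can be grown without limit in culture. The members were all protein-coding loci of the deposited table named for an SRSF gene with a number or for an HNRNP gene, with pseudogenes left out. This gave 35 loci, 12 of SR genes and 23 of hnRNP genes, among 15410 protein-coding loci and 43444 loci in all. A further symbol, HNRNPUL2-BSCL2, is a readthrough that shares the locus of HNRNPUL2 and was counted with it.

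SR proteins bind exonic enhancer sequences through RNA recognition motifs and recruit the splicing machinery through a domain rich in arginine and serine. Many hnRNPs bind silencer sequences in exons and introns and oppose that recruitment, and the balance between both families sets which exons a transcript keeps. Both families also act in transcription, RNA export, stability and translation, and many of their own genes carry exons or introns whose splicing sends the transcript to nonsense-mediated decay, a loop by which the proteins limit their own level.

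Total RNA was sequenced from A549 cells after 24 h in DMSO (the vehicle), in RSL3 at 2 µM, or in the same RSL3 dose combined with Fer-1 at 5 µM. RSL3 inhibits GPX4, the enzyme that reduces lipid hydroperoxides, and so triggers ferroptosis, and Fer-1 (ferrostatin-1) is a radical scavenger that blocks it. Each of the 3 groups had 3 libraries, and the study asked which transcripts are tied to ferroptosis. Nothing in the labels ties replicate libraries to separate cultures, and the p-values therefore measure only the spread between these samples. No group received Fer-1 alone.

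The libraries held 39143521 to 45855255 counts, and a count of 0 allows at most 0.0773 CPM (counts divided by library size and brought to a common depth) in the shallowest library, covering counting error only. KRT8 and KRT18, epithelial keratins, were at 649 to 747 and 514 to 598 CPM, while KRT19 stayed at or below 1.56 CPM and CDH1 at or below 0.198 CPM. EPCAM was not analysed here. The summed level of the 6 fibroblast markers was 101 and 128 CPM in DMSO replicates 1 and 2, 16.3 CPM in DMSO replicate 3 and 12.3 to 18.7 CPM in the other 6 libraries. COL1A1 (49.3 and 62.6 CPM against 9.41 to 11.9 elsewhere) and COL1A2 (32.8 and 41.3 CPM against 0 to 3.19) made up most of it. Each main count against DMSO is therefore also given without those 2 libraries, called collagen-rich here, a choice made after seeing the data. Endothelial markers summed to at most 2.24 CPM, PTPRC was at 1.26 to 3.19 CPM, and HBB was at 0 in all libraries except RSL3 replicate 3. The blood marker CD68 lay in a joined locus with other genes (531 to 585 CPM), so its level cannot be assigned to CD68. By edgeR, KRT8 had a log2 change of -0.09 with RSL3 (adjusted p = 0.0442) and -0.17 with the combination against DMSO (adjusted p = 0.000624), and KRT18 one of -0.16 with the combination (adjusted p = 0.00418). Of the fibroblast and blood markers only COL1A1 and CD68 were tested, and neither was called. COL1A1 had a log2 change of -1.95 with RSL3 (SE 0.583, edgeR adjusted p = 0.0792) and -2.10 with the combination, both against DMSO. The part of these shifts in the results was not tested.

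The DNA before the start of 4 member genes is shown as examples. All 4 genes were lower with RSL3. With Fer-1 added, HNRNPU and SRSF3 were called below DMSO, and HNRNPAB and SRSF6 above RSL3 alone. They were also picked for having 1 listed start and few bases of the assembled locus inside the window. Other members with the same calls are not shown. RefSeq promoters (GRCh38.p14) were matched for 32 of the 35 members. HNRNPA1, SRSF2 and HNRNPCL3 had no entry. Each sequence is the 250 bases before the RefSeq start, read on the gene's own strand, at chr1:244864544-244864793 (minus strand) for HNRNPU, chr6:36594112-36594361 (plus) for SRSF3, chr5:178204283-178204532 (plus) for HNRNPAB and chr20:43457646-43457895 (plus) for SRSF6. The first 17, 9, 0 and 3 bases of the respective assembled loci lie inside these windows. Capitals mark every match, on either strand, to CCAAT (the CCAAT box), GGGCGG (the GC box), CGGAAG (the ETS core) or TGACGT (a cAMP response element core).
HNRNPU: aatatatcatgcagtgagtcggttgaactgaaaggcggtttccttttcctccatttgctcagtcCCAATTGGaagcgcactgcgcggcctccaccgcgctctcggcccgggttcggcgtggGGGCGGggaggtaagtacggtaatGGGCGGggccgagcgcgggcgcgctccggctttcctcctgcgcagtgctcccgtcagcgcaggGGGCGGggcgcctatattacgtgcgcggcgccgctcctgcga
SRSF3: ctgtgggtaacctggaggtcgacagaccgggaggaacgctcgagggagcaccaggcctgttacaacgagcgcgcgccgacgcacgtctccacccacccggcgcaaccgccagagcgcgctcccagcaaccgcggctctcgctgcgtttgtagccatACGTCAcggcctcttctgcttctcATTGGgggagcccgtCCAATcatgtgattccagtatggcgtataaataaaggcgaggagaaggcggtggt
HNRNPAB: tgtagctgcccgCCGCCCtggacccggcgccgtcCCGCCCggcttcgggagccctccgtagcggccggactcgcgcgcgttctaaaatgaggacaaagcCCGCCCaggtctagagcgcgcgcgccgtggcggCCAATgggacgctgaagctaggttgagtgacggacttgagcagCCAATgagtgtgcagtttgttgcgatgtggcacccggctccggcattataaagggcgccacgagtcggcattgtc
SRSF6: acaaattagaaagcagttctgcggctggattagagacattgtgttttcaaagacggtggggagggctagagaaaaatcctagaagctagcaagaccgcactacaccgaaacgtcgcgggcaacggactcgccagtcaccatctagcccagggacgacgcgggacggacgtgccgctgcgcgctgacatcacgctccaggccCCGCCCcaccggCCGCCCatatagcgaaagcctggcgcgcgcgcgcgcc
In HNRNPU, 2 CCAAT matches on opposite strands overlap in the run of 8 capitals, and 3 GC boxes follow. SRSF3 holds 2 CCAAT matches and 1 TGACGT match, HNRNPAB 2 CCAAT matches and 3 GC boxes, and SRSF6 2 GC boxes and no match to the other 3 motifs.

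Across the 32 members with an entry, with the first listed start of each gene, 46.9% of windows held CCAAT, against 33.0% of 27305 promoters of all genes. The GC box was in 62.5% of member windows against 42.3%, CGGAAG in 34.4% against 16.8%, and TGACGT in 18.8% against 7.42%. CCAAT was found in 10 of the 18 members with an entry that were lower with RSL3 and in 5 of the 12 tested members that were not called. The GC box was found in 10 of those 18 and in 9 of those 12, CGGAAG in 6 and 5, and TGACGT in 4 and 1. The 27305 promoters were not limited to genes expressed in these cells and were not matched to the members in GC content. No difference between these shares was tested. These are matches of letters, not measured binding sites.

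Levels between genes were compared as FPKM, the authors' unit of fragments scaled to transcript length and library depth. With DMSO, HNRNPC, a core protein of nuclear RNA-protein particles that binds uridine tracts, was highest at 77.5 ± 1.13 FPKM (SD, n = 3). It was followed by SRSF2 (70.3 ± 0.990), HNRNPAB (58.4 ± 1.16), HNRNPA1 (54.5 ± 1.54) and HNRNPK (47.3 ± 2.82), and the gaps between the first 4 were wider than their SDs. In the middle of the order, HNRNPH3 (13.5 ± 0.216), SRSF7 (13.2 ± 0.121), SRSF9 (13.2 ± 0.450) and HNRNPR (12.8 ± 0.345) followed each other with gaps no wider than the summed SDs of the genes beside them. The lowest tested members were SRSF8 (4.36 ± 0.0969) and HNRNPA1L2 (2.72 ± 0.189), a retrogene of HNRNPA1.

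**Figure D1:**
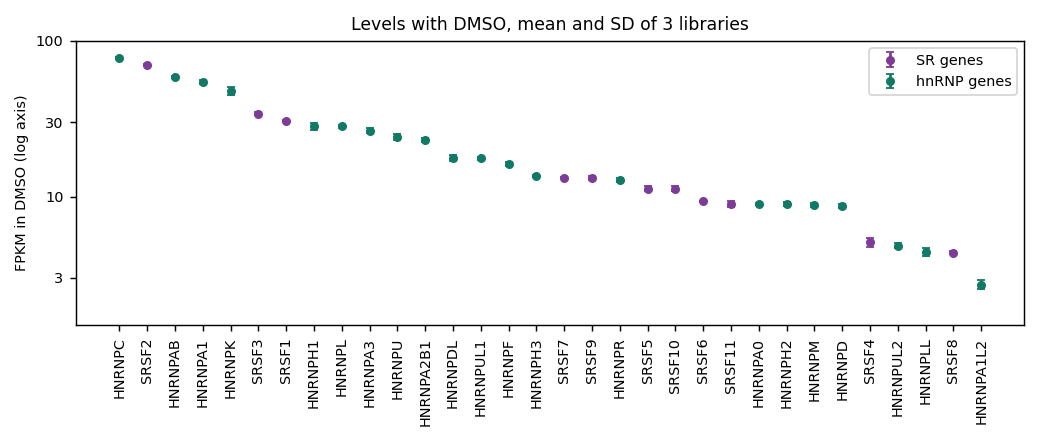
FPKM on a log axis with DMSO for the 32 tested members, with points at the mean and bars for the SD of 3 libraries. Levels run from 77.5 FPKM for HNRNPC to 2.72 FPKM for HNRNPA1L2, and SR and hnRNP genes are interleaved along the order.

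Of the 35 members, 32 passed the minimum of 1 FPKM in at least 3 of 9 libraries, and 31 of them had at least 1 FPKM in all 9. The 3 that did not pass were SRSF12, with 13 to 21 counts in the DMSO libraries, 3 to 15 with RSL3 and 8 to 16 with RSL3 and Fer-1, and the retrogenes HNRNPCL3 and HNRNPCL4, with 2 counts each in DMSO replicate 2 and 0 elsewhere. No change was tested for these 3. Of the 32 tested, 9 lay in loci joined with other gene names, where 4 of 9 fell with RSL3, against 16 of 23 in single-name loci, and the labels do not state whether counting used the strand.

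With RSL3, many SR and hnRNP transcripts fell in both families. In a quasi-likelihood fit with edgeR, with p-values adjusted by Benjamini and Hochberg's method over all 17297 tested loci and called under 0.05, 20 of the 32 members fell against DMSO, none rose and 12 did not pass. The background was 11.2% of protein-coding loci called lower and 13.7% called higher (24.9% in either direction), and 19% called lower among protein-coding loci with a mean of at least 50 CPM, where 20 of 30 members fell. By family, 7 of 11 SR genes and 13 of 21 hnRNP genes fell. The estimate was below 0 for all 32 members, with a median log2 change of -0.20 and a range of -0.31 to -0.02, whereas the median of all tested protein-coding loci was 0.00 and 49.4% of them were below 0. Among protein-coding loci with a mean of at least 50 CPM, the median was -0.02 and 55.7% were below 0. In 23 members the 3 RSL3 libraries lay wholly below the 3 DMSO libraries, as did 19% of protein-coding loci. Leaving out DMSO replicates 1 and 2 left DMSO with 1 library, which was assumed to vary like those of the other groups, and the SEs grew. In that fit 14 of 32 members passed as lower, all among the 20, the median log2 change was -0.18, and 463 of all tested loci were called lower in place of 1290.

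Summed over the members, the level was 7741 ± 111 CPM with DMSO, 6762 ± 82.2 with RSL3 and 7134 ± 112 with RSL3 and Fer-1 (SD, n = 3). The groups did not overlap. RSL3 stood at 87.3% of DMSO and the combination at 92.2%. SR genes summed to 2309 ± 39.7, 2027 ± 32.1 and 2146 ± 32.8 CPM in the same order, and hnRNP genes to 5432 ± 71.1, 4735 ± 52.2 and 4988 ± 80.8 CPM. DMSO replicate 3, as low in the collagen transcripts as the treated libraries, had 7706 CPM, within the range of 7652 to 7865 CPM of the other DMSO libraries. All these sums take whole loci, so the 9 joined with other gene names may bring in reads of other genes. In such bulk samples, fewer cells with a transcript and less transcript per cell cannot be told apart.

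**Figure D2:**
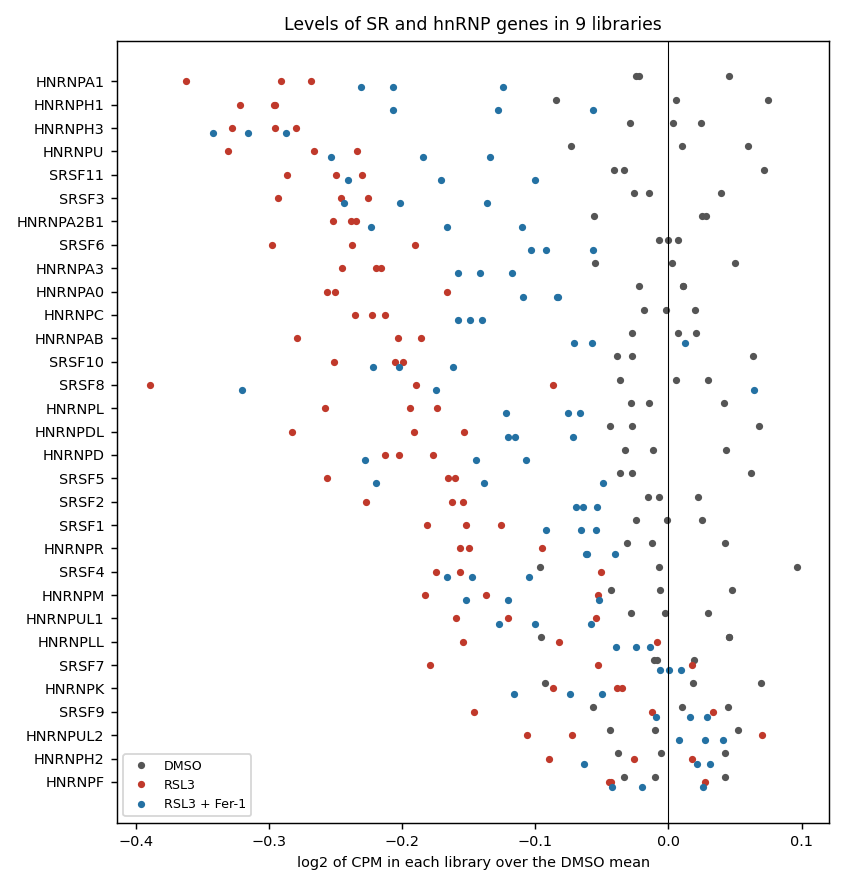
Level of 31 tested members in each of 9 libraries, as log2 of CPM over the DMSO mean, ordered by the change with RSL3 (HNRNPA1L2 is left off because 2 of its libraries fall far outside the axis). RSL3 points lie left of all DMSO points for genes in the upper rows and mix with them in the lower rows, and the points for RSL3 with Fer-1 lie mostly between.

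Among the SR genes, SRSF11 and SRSF3 fell furthest. SRSF3 (chr6:36594353-36605600, GRCh38), the smallest SR protein and a promoter of RNA export and cell proliferation, had 284, 297 and 286 CPM with DMSO, 244, 247 and 236 with RSL3, and 263, 244 and 252 with RSL3 and Fer-1. The DMSO libraries stood above all 6 others, and the 2 RSL3-treated groups overlapped. The log2 change with RSL3 was -0.25 (SE 0.037, edgeR adjusted p = 1.17e-05).

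SRSF11 (chr1:70205682-70253257), an SR protein that binds the splicing factor U2AF, had 220, 237 and 219 CPM with DMSO, 192, 185 and 190 with RSL3, and 211, 191 and 201 with the combination. Again DMSO lay above all other libraries. Its log2 change with RSL3 was -0.26 (SE 0.042, edgeR adjusted p = 5.68e-05).

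SRSF6, a classical SR protein, had 306, 307 and 304 CPM with DMSO, 249, 268 and 259 with RSL3, and 294, 287 and 285 with RSL3 and Fer-1. The 3 groups did not overlap, with the combination in between. The log2 change with RSL3 was -0.24 (SE 0.035, edgeR adjusted p = 1.2e-05). This locus joins SRSF6 with L3MBTL1, SGK2 and other names, so reads of those genes cannot be told apart from it.

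The other 4 SR genes that fell were SRSF10, a splicing repressor when it is dephosphorylated (log2 change -0.22, SE 0.040), SRSF5, first found as an insulin-induced transcript in rat liver cells (-0.19, SE 0.056), SRSF2, an SR protein that stays in the nucleus (-0.18, SE 0.036), and SRSF1, the founding SR protein (-0.15, SE 0.030). Their edgeR adjusted p ran from 0.000244 for SRSF10 to 0.0173 for SRSF5. The SRSF5 call was lost without DMSO replicate 3 or RSL3 replicate 3, where its log2 change was -0.16 in both cases. With DMSO replicate 3 as the lone DMSO library, SRSF5 had -0.25 (SE 0.080) and SRSF1 -0.12 (SE 0.043), and neither passed.

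The 4 SR genes not called were SRSF4, SRSF7, SRSF8 and SRSF9. SRSF7, the closest paralog of SRSF3 among the SR proteins and likewise an export adaptor, had 124, 124 and 127 CPM with DMSO, 121, 127 and 110 with RSL3, and 126, 124 and 125 with the combination. All 3 groups overlapped, and the 95% interval of its log2 change with RSL3 was -0.16 to 0.03, beside -0.33 to -0.18 for SRSF3. The difference between the paralogs was not tested. SRSF8, a retrogene related to SRSF2, had a log2 change of -0.22 with a wide interval of -0.44 to 0.00. SRSF9 had an interval of -0.16 to 0.08 and SRSF4 one of -0.23 to -0.02, with an edgeR adjusted p of 0.11.

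In the hnRNP A group, which binds UAG-containing silencers, 4 of the 5 tested genes fell. HNRNPA1 (chr12:54280193-54287088), the best studied splicing repressor of the family, had 358, 376 and 358 CPM with DMSO, 302, 297 and 283 with RSL3, and 334, 310 and 315 with RSL3 and Fer-1. No library of one group reached into another. The log2 change with RSL3 was -0.31 (SE 0.037, edgeR adjusted p = 6.61e-07), the largest decrease among the 32 members. HNRNPA1 has many pseudogenes, and the 42 loci named for them summed to 32.4, 30.2 and 30.7 CPM in the 3 groups, 8.90% of the HNRNPA1 level with DMSO.

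HNRNPA2B1, which also sorts microRNAs and reads a methylated adenosine mark in RNA, had 542, 574 and 573 CPM with DMSO, 477, 478 and 473 with RSL3, and 522, 482 and 501 with the combination. The 3 groups were apart in rank. Its log2 change with RSL3 was -0.24 (SE 0.034, edgeR adjusted p = 6.01e-06). HNRNPA3 and HNRNPA0, close relatives of HNRNPA1, changed by -0.23 (SE 0.037) and -0.22 (SE 0.049). HNRNPA1L2 was not called, with an interval of -1.01 to 0.73.

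Among the D group, which binds AU-rich elements and controls transcript decay, all 3 genes fell. HNRNPD had a log2 change with RSL3 of -0.20 (SE 0.043), and its relatives HNRNPDL and HNRNPAB had -0.21 (SE 0.045) and -0.22 (SE 0.038). HNRNPC had 687, 669 and 677 CPM with DMSO, 576, 585 and 581 with RSL3, and 615, 608 and 611 with RSL3 and Fer-1. The spread within each group was small and the groups stood well apart. Its log2 change with RSL3 was -0.22 (SE 0.029, edgeR adjusted p = 1.64e-06). With DMSO replicate 3 as the lone DMSO library, HNRNPA0 had a log2 change of -0.23 (SE 0.073), HNRNPD -0.18 (SE 0.062) and HNRNPDL -0.16 (SE 0.064), and none of these 3 passed.

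In the H/F group, which binds runs of guanosine, 2 of 4 genes fell. HNRNPH1 (chr5:179613076-179634784) had 363, 387 and 406 CPM with DMSO, 314, 308 and 314 with RSL3, and 371, 353 and 334 with the combination. RSL3 libraries were below all others, and the combination overlapped DMSO. Its log2 change with RSL3 was -0.30 (SE 0.040, edgeR adjusted p = 3.25e-06).

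HNRNPH3 (chr10:68331174-68343338) had 87.3, 89.3 and 90.6 CPM with DMSO, 73.4, 72.6 and 71.0 with RSL3, and 71.6, 73.0 and 70.3 with the combination. Both treated groups lay below DMSO and overlapped each other. Its log2 change with RSL3 was -0.30 (SE 0.051, edgeR adjusted p = 7.83e-05). HNRNPF, in contrast, had 275, 290 and 279 CPM with DMSO, 287, 273 and 273 with RSL3, and 273, 277 and 286 with the combination. Its groups overlapped throughout, and the 95% interval of its log2 change with RSL3 was -0.09 to 0.05. That of HNRNPH2, in a locus joined with RPL36A, was -0.14 to 0.08. These intervals do not meet those of HNRNPH1 (-0.39 to -0.22) and HNRNPH3 (-0.40 to -0.20), although the differences between genes were not themselves tested.

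Of the U group, HNRNPU (chr1:244840638-244864560), a scaffold protein that binds chromatin and nuclear RNA, had 616, 675 and 652 CPM with DMSO, 551, 539 and 515 with RSL3, and 590, 543 and 570 with RSL3 and Fer-1. DMSO was above all other libraries. Its log2 change with RSL3 was -0.28 (SE 0.037, edgeR adjusted p = 3.92e-06). Its relatives HNRNPUL1 (interval -0.19 to -0.03, edgeR adjusted p = 0.064) and HNRNPUL2 (-0.15 to 0.08), the latter in a locus joined with BSCL2, were not called.

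HNRNPL, which binds CA repeats, fell by 0.21 on the log2 scale (SE 0.035), in a locus joined with ECH1. Its paralog HNRNPLL was not called (interval -0.19 to 0.03). That interval overlapped the -0.28 to -0.14 of HNRNPL, and the difference between the paralogs was not tested. HNRNPR, a relative of SYNCRIP that acts in transcript transport, fell by 0.13 (SE 0.038), and this call was lost without DMSO replicate 2, RSL3 replicate 2 or RSL3 replicate 3, with log2 changes of -0.11 to -0.13. With DMSO replicate 3 as the lone DMSO library, HNRNPR had -0.11 (SE 0.055) and did not pass. HNRNPK, a binder of cytidine tracts, had 431, 416 and 385 CPM with DMSO and 400, 401 and 387 with RSL3. Those libraries overlapped, and the interval was -0.13 to 0.02. HNRNPM had an interval of -0.21 to -0.03 with an edgeR adjusted p of 0.052.

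**Figure D3:**
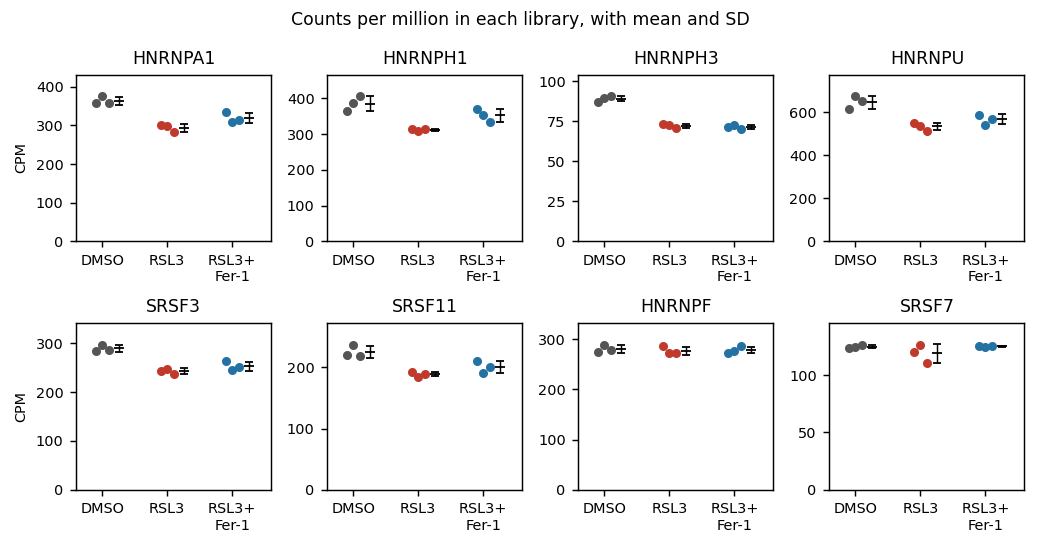
CPM from 0 in each of the 9 libraries for 8 members, with a bar for the mean and SD of each group of 3. HNRNPA1, HNRNPH1, HNRNPH3, HNRNPU, SRSF3 and SRSF11 were lower with RSL3 than with DMSO, and the libraries of HNRNPF and SRSF7 overlapped between groups.

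When Fer-1 was given with RSL3, most members stood above RSL3 alone, and 5 of 32 passed the test as higher and none as lower. The background was 3.61% of protein-coding loci called higher, 5.81% called lower and 9.42% in either direction, and 6.28% called higher at a mean of at least 50 CPM, where all 5 lay. At an unadjusted p under 0.05 there were 14 members, but the share of all loci at that threshold was not counted. The 5 were HNRNPAB (log2 change 0.18, SE 0.038, edgeR adjusted p = 0.00222), HNRNPH1 (0.18, SE 0.040, adjusted p = 0.00619), SRSF6 (0.16, SE 0.035, adjusted p = 0.0047), HNRNPL (0.12, SE 0.035, adjusted p = 0.0341) and SRSF2 (0.12, SE 0.036, adjusted p = 0.0426). HNRNPAB, with 241, 239 and 233 CPM with DMSO, 196, 209 and 206 with RSL3 and 226, 240 and 228 with the combination, had 1 combination library within the DMSO range and the other 2 below it. SRSF2 had 248, 254 and 249, then 224, 214 and 225, then 240, 239 and 241 CPM, with the combination between the groups.

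The estimate was above 0 for 28 of 32 members and below 0 for 4, with a median of 0.07. Over all tested protein-coding loci the median was 0.00 and 49.5% were below 0. Among those with a mean of at least 50 CPM, the median was 0.01 and 44.2% were below 0. The calls of SRSF2 and HNRNPL depended on single libraries. The SRSF2 call was lost without RSL3 replicate 1 or 2 or any of the 3 combination libraries, that of HNRNPL without RSL3 replicate 1 or 2 or combination replicate 2 or 3, and that of HNRNPH1 without combination replicate 1. The lowest estimate was that of HNRNPA1L2 at -0.58 (SE 0.365), which did not pass. Its combination libraries were at 16.7, 5.76 and 8.51 CPM against 14.7 to 16.5 with RSL3 and 15.7 to 17.9 with DMSO. Without combination replicate 1 its log2 change was -1.12 (edgeR adjusted p = 3.18e-05). The locus joins HNRNPA1L2 with MRPS31P4, so the changing transcript cannot be named.

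Against DMSO, RSL3 with Fer-1 left 10 of 32 members lower and none higher, beside 4.05% of protein-coding loci called lower, 6.29% called higher and 10.3% called in either direction, and 7.02% called lower at a mean of at least 50 CPM, where all 10 lay. HNRNPH3 had the largest called decrease (log2 change -0.31, SE 0.050, edgeR adjusted p = 0.000123). SRSF10 (-0.20), SRSF3 (-0.19), HNRNPU (-0.19), HNRNPA1 (-0.19), SRSF11 (-0.17), HNRNPA2B1 (-0.17), HNRNPD (-0.16), HNRNPC (-0.15) and HNRNPA3 (-0.14) were the others. Their edgeR adjusted p ran from 0.00101 to 0.0212. With DMSO replicate 3 as the lone DMSO library, under the same assumption on its spread, 4 members were called lower, of which 3 were among the 10. These were HNRNPH3 (-0.335), HNRNPA2B1 (-0.19), HNRNPU (-0.20) and, outside the 10, HNRNPH1 (-0.20), and HNRNPA1 (-0.16), SRSF3 (-0.17), SRSF11 (-0.12), SRSF10 (-0.16), HNRNPC (-0.14), HNRNPD (-0.14) and HNRNPA3 (-0.14) did not pass. The SE of HNRNPC, for example, was 0.042 there and 0.029 with all libraries. Leaving out 1 library at a time, the calls of HNRNPA3, HNRNPD and SRSF11 were lost in 4, 4 and 3 of the 6 cases.

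The comparisons share libraries, so their values are set side by side only. Of the 20 members lower with RSL3, 10 were also lower than DMSO with the combination, 5 were above RSL3 alone with the combination, 5 passed neither test, and none passed both. This division rests in part on values next to the threshold, with an edgeR adjusted p of 0.0507 for HNRNPA1 against RSL3 and 0.0531 for HNRNPH1 against DMSO. Both genes passed both tests with upper-quartile factors, with library totals alone and by DESeq2, and so did HNRNPC by DESeq2. The mean with the combination lay between the RSL3 and DMSO means for 19 of the 20, the exception being HNRNPH3. Over these 20 the median log2 change against DMSO was -0.22 with RSL3 and -0.14 with the combination. The 10 called lower with the combination were all among these 20.

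**Figure D4:**
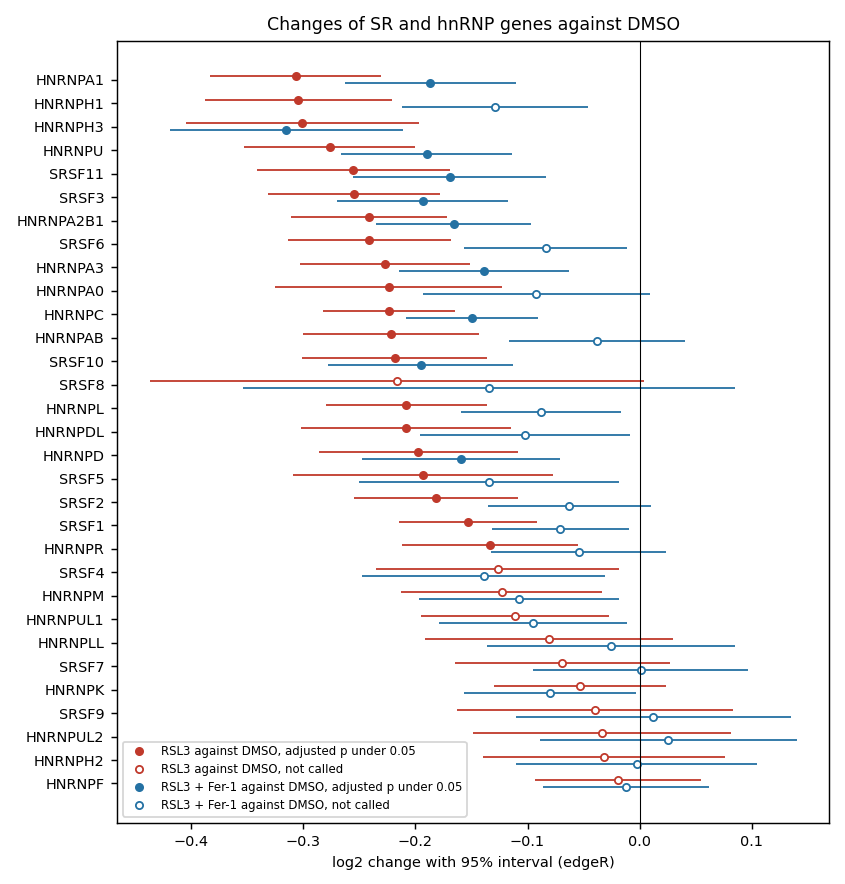
Log2 change against DMSO with its 95% interval from edgeR for 31 tested members (HNRNPA1L2 left off), with RSL3 in red and RSL3 with Fer-1 in blue, and filled points for an adjusted p under 0.05. All RSL3 estimates lie below 0, with 20 filled, and the combination has 10 filled, HNRNPH3 being the one gene of these 20 without a shift towards 0.

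Gene counts do not show which isoform was made. The deposited transcript types list a nonsense-mediated decay transcript for 22 of the 32 tested members (68.8%), against 41.9% of tested protein-coding loci, and a retained-intron transcript for 25 (78.1%) against 60.7%. The members' loci held a median of 14 transcripts against 9. The decay list, which holds the UPF and SMG factors and the exon junction complex, had 1 of 15 tested genes lower with RSL3 and none higher. This was SMG8 (log2 change -0.12, edgeR adjusted p = 0.0259), in a locus joined with PRR11. The share, 6.67%, was below the 11.2% of protein-coding loci called lower. With RSL3 the estimate was still below 0 for 14 of the 15 (median log2 change -0.09), beside 49.4% of protein-coding loci. In 8 of the 15 the RSL3 libraries lay wholly below the DMSO libraries, as did 19% of protein-coding loci. The list had none called in either comparison with the combination, by edgeR. At an unadjusted p under 0.05 there were 6 genes with RSL3 against DMSO, 2 with the combination against RSL3 and 3 against DMSO. No share of all loci was counted at that threshold.

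Genes that work with the SR and hnRNP proteins were read in the same fit. Of all tested protein-coding loci, 11.2% were called lower and 13.7% higher with RSL3. Against DMSO with the combination, these shares were 4.05% and 6.29%. Against RSL3 with the combination, 5.81% were called lower and 3.61% higher. For the unadjusted counts below, no share of all loci was counted. Of 20 SR-related proteins, which carry arginine-serine stretches without being classical SR proteins, 12 fell with RSL3 and none rose (median log2 change -0.16). The lowest adjusted p were those of BCLAF1 (-0.22, edgeR adjusted p = 5.90e-05), SREK1 (-0.31, 8.49e-05) and RBM39 (-0.17, 0.000952). SREK1 had 92.2 ± 2.99 CPM with DMSO, 74.3 ± 2.82 with RSL3 and 82.2 ± 3.24 with the combination (SD, n = 3). With the combination 3 were lower than DMSO (BCLAF1, SRRM1 and ARGLU1) and LUC7L was higher, and none differed from RSL3, with 6 at an unadjusted p under 0.05.

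Of 23 other RNA-binding partners, 12 fell with RSL3 and 1 rose (median -0.13). MATR3, a nuclear matrix protein that binds pyrimidine tracts with PTBP1, went from 648 ± 9.34 to 530 ± 7.89 CPM (log2 change -0.29, SE 0.031, edgeR adjusted p = 9.08e-08) and stood at 601 ± 20.6 CPM with the combination, above RSL3 (log2 change 0.18, edgeR adjusted p = 0.00024). This locus joins MATR3 with SNHG4 and other names, so the changes cannot be assigned to MATR3 alone. RBMX, itself also known as hnRNP G, fell by 0.24 and SFPQ, a paraspeckle protein, by 0.21. PCBP1, a cytidine-binding relative of HNRNPK, was the gene that rose (0.13, edgeR adjusted p = 0.0126). With the combination, 5 partners were below DMSO and PCBP1 was above it.

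Of 12 tested exon regulators with cell-type patterns (13 listed), 4 fell with RSL3 and none rose (median -0.09). MBNL3, a muscleblind protein, changed most, from 118 ± 3.41 to 86.0 ± 6.08 CPM (log2 change -0.45, SE 0.055, edgeR adjusted p = 6.61e-07), and was at 90.8 ± 4.87 CPM with the combination. MBNL1 (-0.14), MBNL2 (-0.19) and the epithelial regulator ESRP2 (-0.24) were the others, and the 3 MBNL genes were also below DMSO with the combination. None differed between the combination and RSL3 by edgeR, with 3 at an unadjusted p under 0.05.

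The list of kinases that phosphorylate SR proteins and of importins, which carry proteins into the nucleus, had 1 of 10 lower with RSL3 and none higher. This was PRPF4B (-0.18, edgeR adjusted p = 0.0192), which was also lower than DMSO with the combination (-0.17, adjusted p = 0.0454). None differed between the combination and RSL3, with 2 at an unadjusted p under 0.05. The share lower with RSL3, 10%, was near the 11.2% of protein-coding loci called lower.

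The core spliceosome, the snRNP and associated proteins of the splicing machinery, had 3 of 36 lower with RSL3 and none higher (median -0.04). The 3 were 8.33% of the list, below the 11.2% of protein-coding loci called lower. They were SF3B3 (-0.16, edgeR adjusted p = 0.000676), SNRPF (-0.31, adjusted p = 0.0211) and PRPF4 (-0.17, adjusted p = 0.0282). With RSL3 the estimate was below 0 for 28 of the 36, beside 49.4% of protein-coding loci, and 8 were at an unadjusted p under 0.05. None was called with the combination in either comparison, by edgeR, with 9 against RSL3 and 5 against DMSO at an unadjusted p under 0.05. Their median level, 67.4 CPM, was below the 180 CPM of the members, and the difference in share called between the lists was not tested.

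**Figure D5:**
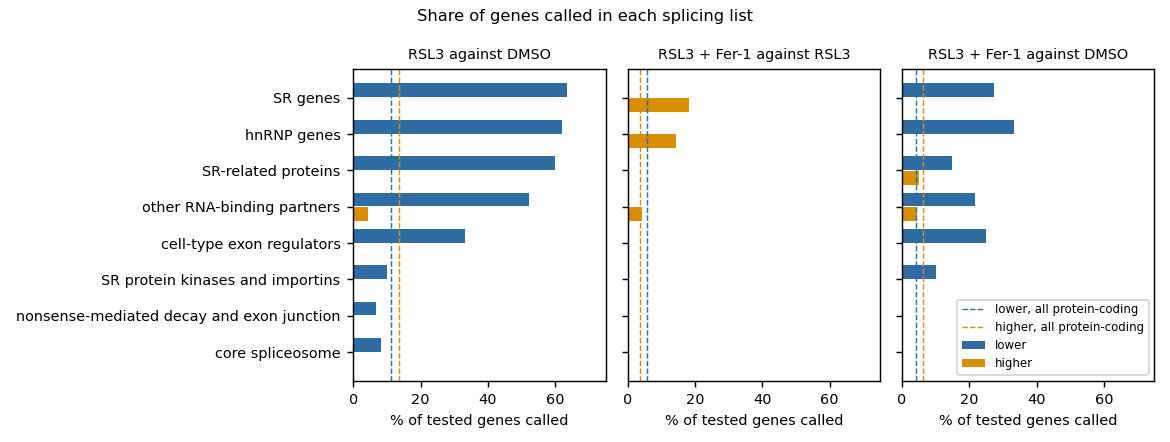
Share of tested genes called lower (blue) or higher (orange) by edgeR in each splicing list, for the 3 comparisons, with dashed lines for all tested protein-coding loci. With RSL3, SR genes, hnRNP genes and SR-related proteins have 63.6%, 61.9% and 60% called, all lower, while the core spliceosome has 8.33%.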

How the data were processed

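Per the submitters' processing notes, cutadapt 1.9 and FastQC were used and the genome build was GRCh38, while an aligner and a counting program were not given in the sources used here. Per the file headers, the authors deposited a count and an FPKM per locus and library. The counts are whole numbers, with no normalization. Totals were 39143521 to 45855255 per library. Loci without a gene name (1496 of 43444, 0.480 to 0.546% of counts) were left out, and 41948 remained. Loci with at least 1 FPKM in 3 libraries were tested (17297) with edgeR 4.0.16 (TMM factors, robust quasi-likelihood fit of 3 groups with 9 libraries and 6 residual degrees of freedom, R 4.3.3), called at a Benjamini-Hochberg adjusted p under 0.05. CPM were scaled by the TMM factors, which were 0.990 to 1.01. Intervals are at 95%. The steps were tested on simulated data. Alternatives used DESeq2 1.42.0, limma 3.58.1 on log2(FPKM + 1) and log2(FPKM + 0.1), other scalings and filters, the replicate number as a block, and each library left out. No 2 libraries of a group agreed within sampling noise. The members and the gene lists were chosen with earlier results of these data known. Every member is accounted for. Members called in any comparison are given with values, and from each list the called genes with the 3 smallest adjusted p in each comparison may be named. LUC7L and PCBP1 fall outside that rule and were named after their values were seen. Promoter motifs were counted in RefSeq sequences of GRCh38.p14. Isoform use was not analysed here.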

Additional observations from a re-analysis of the deposited data

How the results depend on the processing

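With RSL3 against DMSO, 20 to 22 of 32 members were lower and none higher by every tool, scaling and filter run, 18 to 21 when 1 library was left out, and 14 without the 2 collagen-rich DMSO libraries, where 1 DMSO library remains. For RSL3 with Fer-1 against RSL3, the main 5 became 8 by DESeq2's Wald test, 3 with no filter on low values, 3 with filterByExpr, 2 with limma on log2(FPKM + 1) and 2 on log2(FPKM + 0.1), and 3 to 5 when 1 library was left out. Without combination replicate 1, 3 of those 4 were higher and HNRNPA1L2 was lower. For RSL3 with Fer-1 against DMSO, the main 10 became 6 by limma with either pseudocount, 7 to 12 when 1 library was left out, and 4 without the 2 collagen-rich DMSO libraries. The fits without libraries rest on fewer samples by construction, and the other causes were not tested. With the replicate block, the counts were 20, 4 and 10. Same-numbered libraries had correlations of deviations of -0.081 to 0.056, so the numbers were not taken to pair the libraries. Signs reversed only for members not called. When 1 library was left out, HNRNPF ran from -0.044 to 0.0021 (above 0 without DMSO replicate 2), HNRNPUL2 from -0.089 to 0.000865 (RSL3 replicate 1) and SRSF9 from -0.078 to 0.011 (RSL3 replicate 3). Values above 0 were also found, without the collagen-rich libraries, for HNRNPK (0.046), HNRNPLL (0.021) and HNRNPUL2 (0.016), all log2 changes with RSL3 against DMSO. Of the values of single members in these settings, without the collagen-rich case, 1186 kept direction and side of the threshold, 46 lost and 23 gained a call. The 3 members below the FPKM minimum, with at most 21 counts in a library, were not tested.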
